A study of Mus musculus with 6 samples.

Results

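The genes described here are 35 genes of blood vessels and lymphatic vessels, out of 18193 genes measured. They were taken by name: every probe set that the array annotation assigns to 1 of the 35 symbols was collected, 59 probe sets in all, and where a gene had several, the brightest on average was used for it. All 35 genes were found. The tissue was the heart of mice at postnatal day 10. One group was 3 wild-type mice and the other was 3 mice lacking miR-1-2, a gene for the heart and skeletal muscle microRNA miR-1. The sources used here do not give the strain, the design of the deleted allele or the litters, and the labels name no treatment. Each heart was measured on 1 Affymetrix array, and the values are log2 expression levels made with RMA, a method that corrects background, normalizes the arrays to a common distribution and combines the probes of a probe set.

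Endothelial cells line every vessel of the heart and form a dense capillary network between the heart muscle cells. They sense vascular endothelial growth factor (VEGF) and angiopoietins through receptor tyrosine kinases, are held together by junction proteins such as VE-cadherin, and owe their identity to transcription factors of the ETS and SoxF families. Lymphatic vessels arise from veins under the control of Prox1 and respond to VEGF-C through Flt4. In a whole heart, fewer cells of a type and less RNA per cell cannot be told apart.

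No vessel gene differed between knockout and wild type at an adjusted p of 0.05 in limma's test over all genes, where 0 of 18193 genes did (0% of genes). With the replicate number of the titles as a block, 13 genes passed (0.0715%), none of them a vessel gene, and the lowest adjusted p among the 35 was 0.396, for Lyve1. At an unadjusted p under 0.05, 2 of the 35 genes differed without the block, where 4.1% of all genes did: Aqp1 was higher (2.19% of all genes) and Lyve1 lower (1.91%). With the block Angpt1 joined them, 3 of 35 where 7.29% of all genes did, Aqp1 still the 1 higher gene (4.29%). Knockout was higher in all 3 numbered pairs for 10 of the 35 genes (15.2% of all genes) and lower in all 3 for 5 (13.2%). The titles do not say what a shared number means. With group means removed, replicates 2 and 3 correlated less within a number (0.18 and 0.13) than across numbers (0.35 and 0.30). The values of knockout and wild type did not overlap for 3 of the 35 genes, Aqp1 higher and Lyve1 and Angpt1 lower in knockout, where 8.86% of all genes had groups apart. The count higher in all 3 pairs is above the share of all genes, with differences from 0.025 (Flt1) to 0.19 (Aqp1) on the log2 scale; the difference between these shares was not tested. The 95% intervals of the differences lay within 1 log2 unit, which is 2-fold, of 0 for 35 of 35 genes, and within 1.5-fold for 32 of 35; the exceptions were Fli1, Lyve1 and Angpt1.

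**Figure D1:**
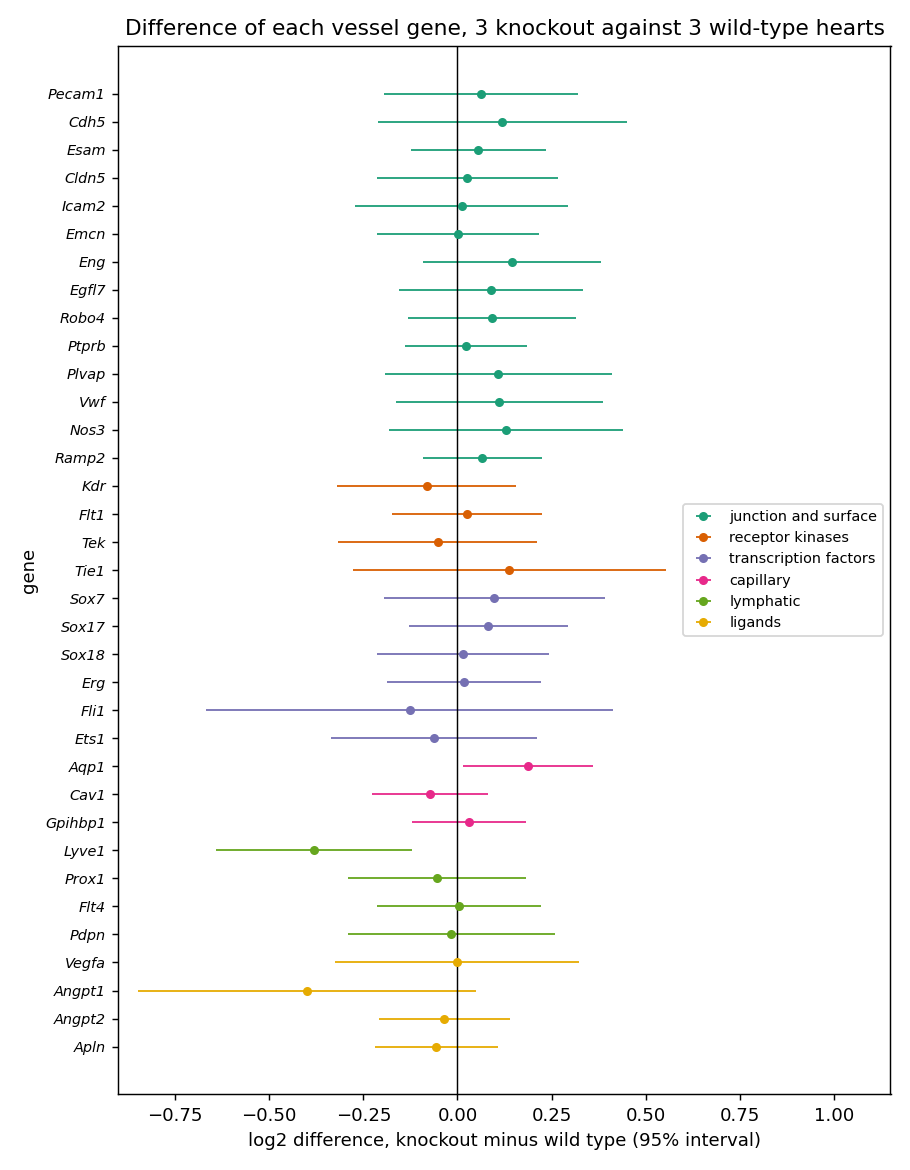
Log2 difference, knockout minus wild type, of each of the 35 genes (points) with its 95% interval from limma (bars), coloured by role; 3 arrays per genotype. The intervals of Aqp1 (0.02 to 0.36) and Lyve1 (-0.64 to -0.12) lie clear of 0, and no gene passed after adjustment over all genes.

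Sex and fat content were not balanced over the 6 arrays. The X-inactivation RNA Xist ran from 11.91 to 12.13 in wild type. Knockout replicate 2 matched those arrays at 12.19, whereas knockout replicates 1 and 3 stood at 7.55 and 7.57. In these 2 arrays the Y-linked Eif2s3y was at 7.63 and 8.35, against 2.85 to 3.16 on the remaining arrays. Fits with the Xist level as a covariate therefore compare mainly knockout replicate 2 with the wild-type arrays. The brown fat gene Ucp1 stood at 9.45 in wild-type replicate 1 and 10.39 in knockout replicate 1, with values of 5.22 to 6.68 elsewhere. Mib1, the host gene of miR-1-2, was at 8.19, 8.40 and 8.31 in wild type and 7.56, 8.15 and 8.19 in knockout, and the microRNA itself was not analysed here. The endothelial genes Pecam1 and Cdh5 were at 8.64 or above on every array, and the lowest value of any probe set on any array was 2.64.

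Junction and surface genes of blood endothelium were all slightly higher in knockout, 14 of 14, with a median log2 difference of 0.078 (50.2% of all genes were higher, with a median of 0.00048). None passed, and the lowest adjusted p with the block was 0.729, for Eng. The count was 10 of 14 when the arrays were quantile-normalized once more, because Cldn5, Icam2, Emcn and Ptprb changed sign. It was 10 of 14 without wild-type replicate 1 and 9 of 14 without knockout replicate 2. With the mean of a gene's probe sets it was 12 of 14. Cdh5, Eng, Egfl7 and Ptprb each had a dimmer probe set with a difference below 0. The median was 0.023 without wild-type replicate 1, 0.036 without knockout replicate 3, 0.045 without knockout replicate 2, 0.13 without wild-type replicate 3 and 0.14 without knockout replicate 1. A list of 24 further endothelial genes, chosen like the others with earlier results of these data known, had 11 higher and 13 lower (median -0.012). Leaving out 1 array gave from 6 higher (without wild-type replicate 1, median -0.030) to 16 higher (without knockout replicate 1, median 0.015), with 7 without wild-type replicate 2 and a median of -0.048 without knockout replicate 2. In that list Cd93, an endothelial surface receptor, differed by -0.11 ± 0.072 (SE).

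Cdh5 encodes VE-cadherin, the adhesion protein of endothelial junctions. It stood at 8.97, 9.36 and 9.41 in wild-type replicates 1, 2 and 3 and at 9.11, 9.44 and 9.55 in knockout replicates 1, 2 and 3. The difference was 0.12 ± 0.15 (SE, n = 3 per group). The lowest array of each genotype was its first replicate, the groups overlapped, and knockout was higher in each of the 3 numbered pairs. A second and dimmer Cdh5 probe set differed by -0.27. Pecam1, the platelet and endothelial adhesion molecule CD31, was at 8.64, 8.80 and 8.97 in wild type and 8.68, 9.01 and 8.90 in knockout, a difference of 0.063 ± 0.11 (SE). The groups covered almost the same range.

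Eng had the largest difference of the junction and surface genes. It encodes endoglin, a co-receptor for ligands of the TGF-beta family, and was at 9.35, 9.55 and 9.67 in wild type and 9.52, 9.78 and 9.69 in knockout (difference 0.14 ± 0.10, SE). Its other probe set differed by -0.0025. Nos3, the endothelial nitric oxide synthase, was at 7.92, 8.28 and 8.28 against 8.03, 8.45 and 8.39 (0.13 ± 0.14). Without wild-type replicate 1 the differences were 0.059 for Eng and 0.0088 for Nos3, and without knockout replicate 1 they were 0.22 and 0.26. Without knockout replicate 2 they were 0.086 and 0.051. Knockout was higher in each numbered pair for Eng and Nos3, and both genes had overlapping groups.

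Vwf and Plvap had 1 high array each, knockout replicate 2. Vwf encodes von Willebrand factor, a clotting protein stored in endothelium, and stood at 8.06, 8.13 and 8.14 in wild type and 8.06, 8.52 and 8.09 in knockout. Plvap, a protein of the diaphragms of endothelial pores, was at 7.48, 7.37 and 7.27 in wild type and 7.45, 7.77 and 7.22 in knockout. Both differences, 0.11 for each gene, changed sign without knockout replicate 2, to -0.037 for each. Knockout replicate 2 was also the highest array of several cell type lists, by median level relative to each gene's mean. The median on it was 0.25 for epicardial and mesothelial, 0.14 for arterial and for fibroblast, 0.13 for endocardial and 0.091 for mural genes. The part of these cell types in the Vwf and Plvap values was not tested.

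The other junction and surface genes differed by 0.0017 to 0.092. They were Esam (0.055), Cldn5 (0.026), Icam2 (0.011), Emcn (0.0017), Egfl7 (0.089), Robo4 (0.092), Ptprb (0.023) and Ramp2 (0.067). Esam, Cldn5 and Icam2 encode adhesion proteins of endothelial junctions, and Emcn encodes a mucin of capillary and venous endothelium. Robo4 is an endothelial receptor of the Roundabout family, Ptprb is the phosphatase VE-PTP that acts on Tek and VE-cadherin, and Ramp2 is the partner that makes Calcrl an adrenomedullin receptor. On the probe set used, Ptprb overlapped almost fully between genotypes, at 9.35, 9.39 and 9.28 in wild type and 9.40, 9.29 and 9.40 in knockout. Its next probe set differed by 0.029. On its dimmest, every knockout array was below every wild-type array, at 5.08, 5.13 and 5.11 against 5.16, 5.29 and 5.28 (difference -0.14).

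Egfl7 is an endothelial secreted protein whose gene also carries a second microRNA, miR-126, which is known to favour VEGF signalling by lowering Spred1 and Pik3r2. In the RefSeq tables of GRCm38.p6 the mature strand lies at chr2:26591402-26591423 on the plus strand, inside Egfl7 (chr2:26581083-26592682). It is shown because Egfl7 is the measured host transcript of an endothelial microRNA, with the seed (bases 2 to 8) in capitals:
mmu-miR-126a-3p: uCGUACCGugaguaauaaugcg
Egfl7 was at 9.68, 9.86 and 9.97 in wild type and 9.81, 9.86 and 10.11 in knockout (difference 0.089 ± 0.11, SE), and its 3 other probe sets differed by -0.0023, 0.049 and 0.042. The microRNA was not analysed here. Spred1 and Pik3r2, brakes of growth factor signalling looked up for this reason after their values were seen, differed by -0.10 ± 0.090 and 0.14 ± 0.095 (SE), and neither passed.

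The 4 receptor kinases of blood endothelium went both ways, with 2 higher and 2 lower in knockout and a median of -0.014. Kdr, the main VEGF receptor, was at 9.35, 9.69 and 9.67 in wild type and 9.38, 9.52 and 9.55 in knockout, a difference of -0.082 ± 0.10 (SE). Flt1, a high-affinity VEGF receptor that mostly acts as a trap, was at 7.88, 8.07 and 8.03 against 7.89, 8.10 and 8.07. For both genes the first replicates were the low arrays on these probe sets, and the groups overlapped. A second Flt1 probe set of nearly equal brightness had knockout replicate 1 as its highest array, at 8.17, and differed by -0.0030.

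Tek encodes the angiopoietin receptor Tie2, and Tie1 its partner receptor. Tek stood at 9.27, 9.32 and 9.34 in wild type and 8.98, 9.43 and 9.36 in knockout. Without knockout replicate 1, its lowest array, the difference went from -0.053 to 0.086. Tie1 had the widest spread of the receptors, with 8.22, 8.57 and 8.66 in wild type and 8.20, 8.88 and 8.76 in knockout. Its difference of 0.14 ± 0.18 (SE) was 0.0056 without wild-type replicate 1 and 0.35 without knockout replicate 1, and it passed in none of these fits.

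Of the 6 transcription factors 4 were higher and 2 lower, with a median of 0.016. The SoxF factors Sox7, Sox17 and Sox18, which specify arterial and lymphatic fates, differed by 0.098, 0.082 and 0.014. Sox7 was at 8.89, 9.17 and 9.18 in wild type and 8.92, 9.25 and 9.37 in knockout, again with the first replicate lowest in each group.

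Among the ETS factors, Fli1 had the most variable array. It stood at 7.52, 7.85 and 7.73 in wild type and 6.93, 7.88 and 7.91 in knockout. The difference of -0.13 ± 0.24 (SE) changed sign without knockout replicate 1, to 0.19. Erg, which keeps endothelial genes active, was at 8.09, 8.11 and 8.09 against 7.93, 8.19 and 8.22, and Ets1 at 10.45, 10.77 and 10.66 against 10.33, 10.65 and 10.70. On the probe sets used, knockout replicate 1 was the lowest of the 6 arrays in all 3 ETS genes. It was also the lowest, at 9.86, on the Ets1 probe set next in brightness. On a dimmer Erg probe set it was the highest of the 6 arrays, at 6.54. On a dimmer Fli1 probe set it stood at 6.94, where the 6 arrays ran from 6.70 to 6.97.

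**Figure D2:**
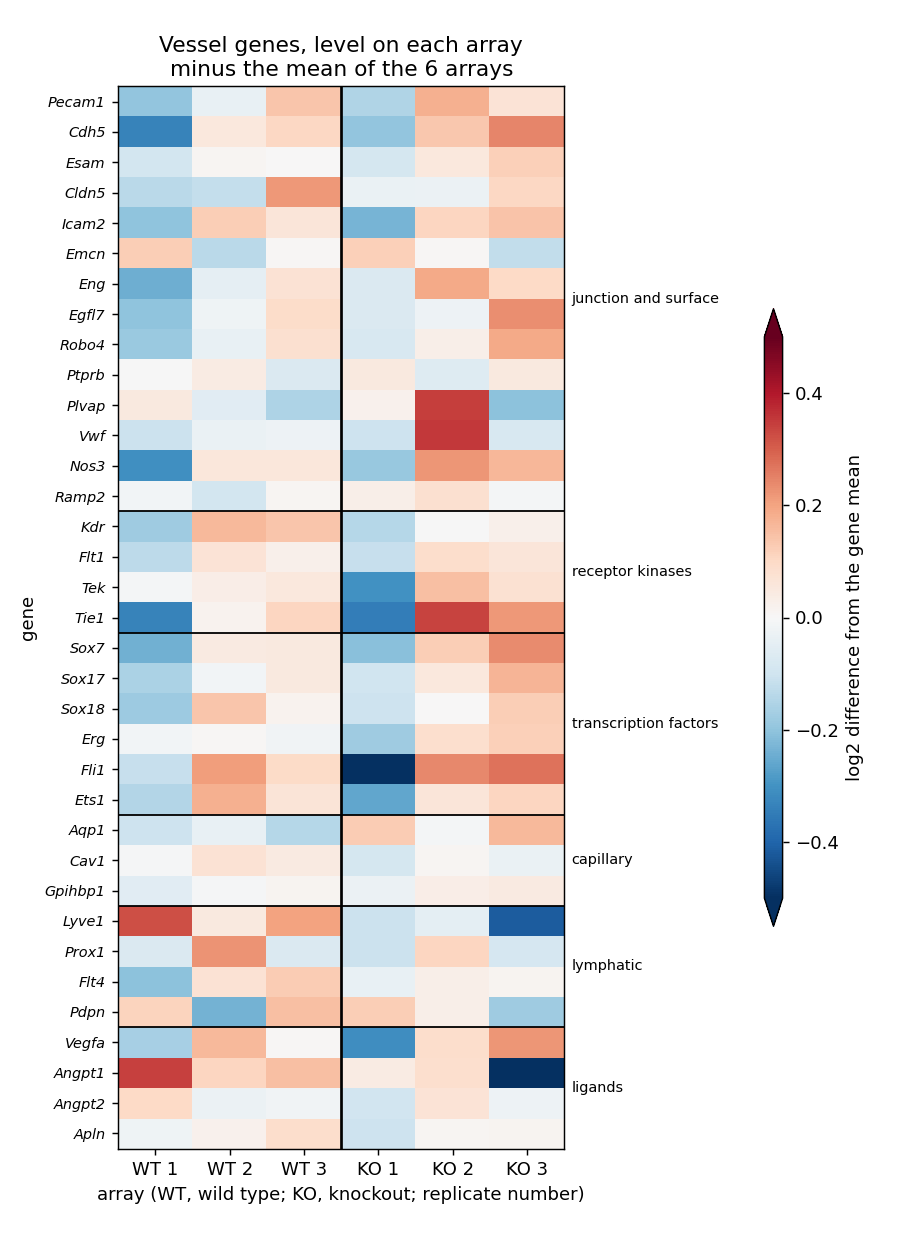
Level of each of the 35 genes on each array minus that gene's mean over the 6 arrays, in log2 units; red is above and blue below the mean, colours end at 0.5 on each side, and black lines part the roles and the genotypes. The first replicate of wild type and of knockout is blue for most blood endothelial genes, and Lyve1 and Angpt1 are the rows that are darkest in knockout replicate 3.

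Levels of many vessel genes differed between arrays with the replicate number. In 25 of the 35 genes replicate 1 was the lowest array of its group in wild type and in knockout, 71.4% of them, against 24.9% of all genes. These counts use 1 probe set per gene. The other Egfl7 probe sets had the same order. The dimmer ones of Cdh5, Eng, Sox7, Sox17, Fli1, Flt1, Flt4 and Vegfa did not, and those of Ets1 and Prox1 were mixed. For the 24 junction, receptor and transcription factor genes the count was 19. The median gap between replicate 1 and the mean of the 2 other arrays was -0.22 in wild type and -0.21 in knockout for these 24 genes, and -0.0046 and 0.0099 over all genes. These gaps are larger than the median genotype difference of the same genes, 0.059. In the 24 further endothelial genes the count was 9, with median gaps of -0.044 and -0.094; the difference between these counts was not tested. Ucp1, a marker of brown fat, was the reverse, high in both first replicates (9.45 and 10.39), and its part in the low endothelial values was not tested. Over all 35 genes 23 were higher in knockout (median 0.023), and this count moved with the arrays used. It was 24 with replicates 2 and 3 alone (median 0.068), 27 without knockout replicate 1 (0.088), 18 without wild-type replicate 1 (0.0032), 17 without knockout replicate 3 and 15 without knockout replicate 2 (-0.0094). It was 17 after a further quantile normalization (-0.0046) and 28 with the Xist level as a covariate (0.083). The Xist fit rests mainly on knockout replicate 2 against wild type. No vessel gene passed in any of these fits.

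Promoter sequence is given for genes that show this pattern and for Aqp1, which does not. RefSeq promoters of GRCm38.p6 were matched by symbol for 17 of the 35 genes, in 24 entries, and the 250 bases before the start were searched for AGGAAG, a form of the site that ETS factors bind, on both strands (the other strand reads CTTCCT). The motif was in 10 of the 24 windows (41.7%) and in 29.5% of all 32851 windows of the same length. Some genes had several windows, and by gene the motif was in 9 of 17. The difference between the window shares was not tested. ACAAT, a core letter run of SOX sites (ATTGT on the other strand), was in 5 of 24 (20.8%) and in 27.7% of all. A match is a description of letters and not a binding site. The windows of Tie1 (chr4:118489850-118490099, minus strand), Robo4 (chr9:37401722-37401971, plus strand), Kdr (chr5:75978456-75978705, minus strand) and Aqp1 (chr6:55336049-55336298, plus strand) are printed 5′ to 3′ with AGGAAG or CTTCCT in capitals; Kdr is shown as a receptor gene without the letters.
Tie1: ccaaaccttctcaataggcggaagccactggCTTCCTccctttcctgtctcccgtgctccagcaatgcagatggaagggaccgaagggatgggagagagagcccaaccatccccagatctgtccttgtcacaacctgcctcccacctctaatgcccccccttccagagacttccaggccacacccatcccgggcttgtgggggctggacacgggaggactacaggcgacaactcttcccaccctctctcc
Robo4: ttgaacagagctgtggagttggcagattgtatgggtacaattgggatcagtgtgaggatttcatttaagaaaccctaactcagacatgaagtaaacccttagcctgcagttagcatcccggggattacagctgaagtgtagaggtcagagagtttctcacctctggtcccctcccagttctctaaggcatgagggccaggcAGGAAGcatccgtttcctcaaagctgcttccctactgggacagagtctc
Kdr: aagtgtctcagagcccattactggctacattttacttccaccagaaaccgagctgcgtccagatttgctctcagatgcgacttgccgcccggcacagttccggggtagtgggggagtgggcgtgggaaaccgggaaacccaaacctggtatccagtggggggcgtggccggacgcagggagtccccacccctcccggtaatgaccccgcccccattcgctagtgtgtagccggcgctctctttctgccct
Aqp1: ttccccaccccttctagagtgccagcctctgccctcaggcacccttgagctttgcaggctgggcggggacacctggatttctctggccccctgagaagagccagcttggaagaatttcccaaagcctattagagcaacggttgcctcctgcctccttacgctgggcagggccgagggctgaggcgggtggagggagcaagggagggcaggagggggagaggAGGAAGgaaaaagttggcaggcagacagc

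Of the capillary genes, Aqp1 was higher in knockout, Cav1 lower and Gpihbp1 nearly equal. Aqp1 encodes the water channel aquaporin-1 of continuous endothelium and of red blood cells. It stood at 9.92, 9.98 and 9.88 in wild type and 10.15, 10.01 and 10.18 in knockout. Every knockout array was above every wild-type array, by 0.19 ± 0.076 on average (SE, n = 3 per group), which is 1.14-fold. The adjusted p was 1.00 in limma's test, and 0.672 with the replicate block. The narrowest gap was between knockout replicate 2, the 1 knockout array with high Xist, and wild-type replicate 2. Xist was high on every wild-type array. With the Xist level as a covariate, a fit that rests mainly on knockout replicate 2 against wild type, the difference was 0.090. The part of sex in the Aqp1 value was not tested. Red cell genes went both ways: of 4 measured, 2 were higher; Alas2, the first enzyme of haem synthesis in red cells, was 0.31 ± 0.15 (SE) higher and Slc4a1 0.096 higher, while Epb42 differed by -0.14. The mean level of these 4 genes ran from 6.56 to 6.75 in wild type and from 6.63 to 6.78 in knockout, and their part in the Aqp1 value was not tested.

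Gpihbp1 carries lipoprotein lipase to the capillary wall. It was at 10.37, 10.42 and 10.44 in wild type and 10.39, 10.46 and 10.47 in knockout, a difference of 0.031 with a 95% interval from -0.12 to 0.18. Lpl, the lipase itself, was lower in knockout on every array, at 12.62, 12.50 and 12.59 against 12.68, 12.75 and 12.67, and did not pass (difference -0.13 ± 0.070, SE). Cav1, the coat protein of caveolae, was lower in each numbered pair, at 11.89, 11.99 and 11.95 against 11.97, 12.05 and 12.03 (difference -0.073). Of 10 listed genes linked to capillaries beyond the members, Lpl included, 1 was higher and 9 lower, with a median of -0.049. Of these 0 passed, and at an unadjusted p under 0.05 the count was 0 as well. Meox2, a homeobox factor of heart capillaries, differed by -0.15, and its sign turned without _x_at and _s_at probe sets.

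**Figure D3:**
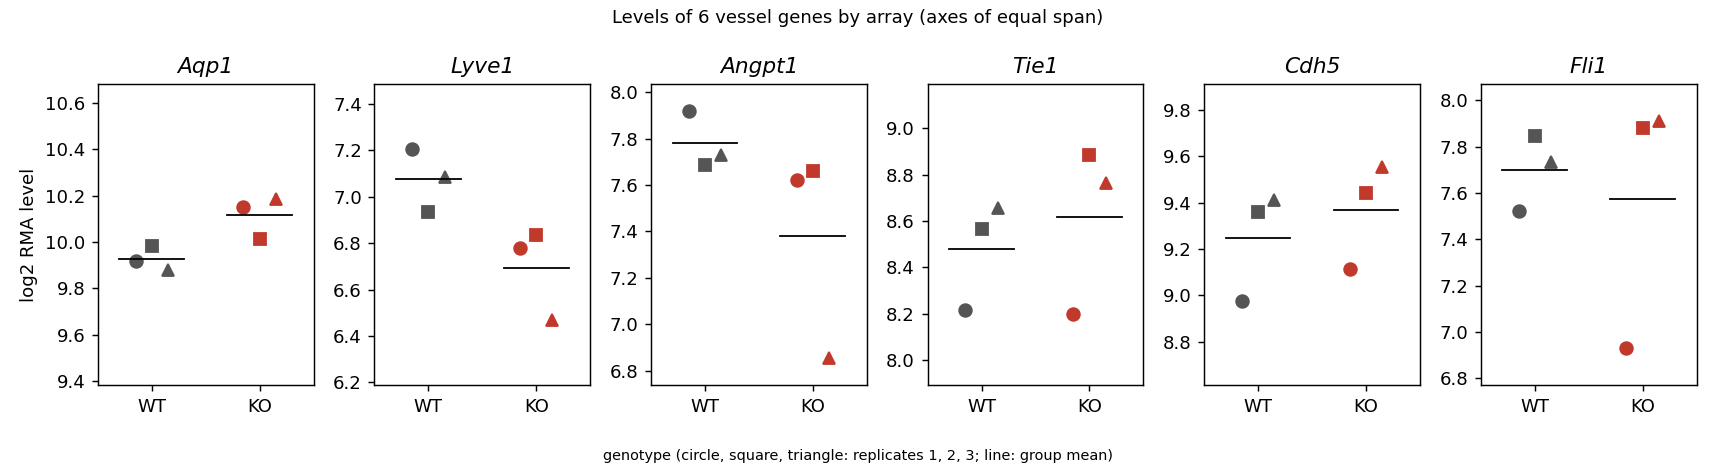
Log2 RMA level of Aqp1, Lyve1, Angpt1, Tie1, Cdh5 and Fli1 on each array (grey, wild type; red, knockout; symbols mark replicates 1 to 3; lines, group means), with panels of equal span. On the probe sets shown, Aqp1, Lyve1 and Angpt1 have no overlap between genotypes, Angpt1 because of a narrow gap and 1 low knockout array. Tie1, Cdh5 and Fli1 are low in the first replicates.

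Of the 4 lymphatic genes 1 was higher and 3 lower in knockout (median -0.035), and Lyve1 had the largest difference. It encodes a hyaluronan receptor of lymphatic endothelium that is also made by a class of resident macrophages. It was at 7.21, 6.93 and 7.08 in wild type and 6.78, 6.84 and 6.47 in knockout. Every knockout array was below every wild-type array, and the difference of -0.38 ± 0.11 (SE, n = 3 per group) is 1.3-fold. In limma's test the adjusted p was 1.00, and 0.396 with the replicate block. With the Xist level as a covariate, a fit that rests mainly on knockout replicate 2 against wild type, the difference was -0.25. The dimmer Lyve1 probe set differed by -0.24, and its groups overlapped, with knockout replicate 1 at 5.41 and wild-type replicate 2 at 5.39. Over the 6 fits that left out 1 array the difference ran from -0.45 to -0.27. The 1 knockout array with high Xist stood at 6.84, and the lowest wild-type array at 6.93. The part of sex in the Lyve1 value was not tested.

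Prox1, Flt4 and Pdpn had overlapping groups on the probe sets used. Prox1, the master factor of lymphatic endothelium that heart muscle cells also express, was at 6.76, 7.06 and 6.76 in wild type and 6.73, 6.94 and 6.75 in knockout. Flt4, the receptor for VEGF-C, was at 7.22, 7.50 and 7.56 against 7.39, 7.46 and 7.45. On a dimmer Flt4 probe set every knockout array was below every wild-type array. It stood at 6.34, 6.37 and 6.36 in wild type and 6.33, 6.14 and 6.22 in knockout (difference -0.12). The dimmer Prox1 probe sets went both ways (0.11 and -0.13). Pdpn, podoplanin, is found on lymphatic endothelium and on the epicardium, and was at 7.57, 7.23 and 7.61 against 7.59, 7.49 and 7.28. Their differences were -0.053, 0.0046 and -0.016, with 95% intervals from -0.29 to 0.26 at the widest. Of 10 further genes linked to lymphatic vessels 5 were higher and 5 lower (median 0.0095). Gja1, connexin 43, differed by 0.20. It was bright in the whole heart, from 12.52 to 12.99 over the arrays, and the cell type behind its value was not tested. Thy1, a surface protein that fibroblasts also carry, differed by -0.17. Mmrn1 and Reln, which lymphatic endothelium is known for, differed by 0.029 and -0.010.

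Macrophage markers were mostly lower in knockout, as Lyve1 was. Of 12 measured, 11 were lower, with a median of -0.28, and 6 of the 12 had groups that did not overlap, all of them lower; over all genes 4.28% were lower without overlap. None passed over all genes (lowest adjusted p 0.247, for Cd68, with the block). Mrc1, the mannose receptor of resident macrophages, was at 7.83, 7.48 and 7.64 in wild type and 7.31, 7.39 and 6.92 in knockout. Cd163, a scavenger receptor of the same cells, was at 5.72, 4.94 and 5.04 against 4.77, 4.91 and 4.62. Cd163 was named after its values were seen. Cd68 was at 6.38, 6.18 and 6.35 against 6.06, 5.86 and 6.03. The mean level of the 12 markers ran from 6.89 to 7.25 in wild type and from 6.69 to 6.89 in knockout, with knockout replicate 1 (6.895) a little above wild-type replicate 2 (6.888). Their part in the Lyve1 value was not tested.

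**Figure D4:**
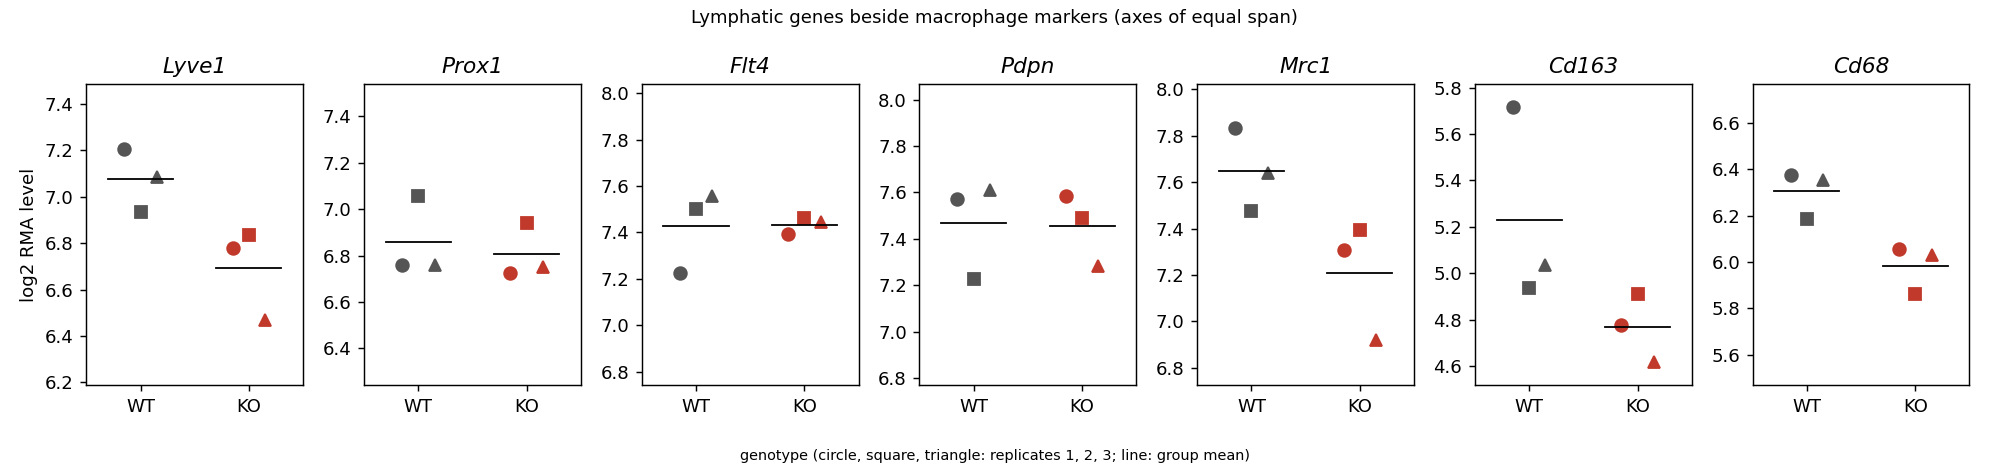
Log2 RMA level on each array of the 4 lymphatic genes (Lyve1, Prox1, Flt4, Pdpn) and of 3 macrophage markers (Mrc1, Cd163, Cd68); colours, symbols and lines as for the 6 vessel genes, with panels of equal span. Lyve1 and the 3 macrophage markers are lower on every knockout array, and Prox1, Flt4 and Pdpn overlap on the probe sets shown. The 3 markers are among the 6 of 12 whose groups did not overlap. Cd163 was named after its values were seen, and its groups are barely apart.

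Of the 4 ligands, Angpt1, Angpt2 and Apln were lower in knockout and Vegfa was level (median -0.045), and Angpt1 had the largest difference of the 35 genes. It encodes angiopoietin-1, the ligand that activates Tek and steadies vessels, and it is made by mural and heart muscle cells more than by endothelium. It stood at 7.92, 7.69 and 7.73 in wild type and 7.62, 7.66 and 6.85 in knockout. The groups were apart by a narrow margin, and knockout replicate 3 was far below the other 5 arrays. The difference of -0.40 ± 0.20 (SE) was -0.14 without that array. It was -0.14 with the Xist level as a covariate, a fit that rests mainly on knockout replicate 2 against wild type. The adjusted p was 1.00 in limma's test and 0.557 with the replicate block. The dimmer Angpt1 probe set differed by -0.17, and its groups overlapped, with knockout replicate 1 its highest array at 5.24.

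Vegfa, the main growth factor of vessels and a product of heart muscle cells, had the same mean in both genotypes. It was at 9.24, 9.57 and 9.41 in wild type and 9.09, 9.49 and 9.63 in knockout, 9.40 ± 0.16 against 9.40 ± 0.28 (SD, n = 3), with a 95% interval of the difference from -0.32 to 0.32. Angpt2, the context-dependent antagonist of Angpt1, differed by -0.035, and Apln, the apelin peptide of sprouting endothelium, by -0.056. Apln was lower in each numbered pair, at 8.32, 8.43 and 8.43 in knockout against 8.40, 8.44 and 8.51.

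The partners and targets of these signals were given from lists and none of their genes passed over all genes, with or without the block. Of 22 ligands, receptors and signalling genes 9 were higher and 13 lower (median -0.028). Vegfc, the ligand of Flt4, was higher on every knockout array, at 7.59, 7.63 and 7.66 against 7.52, 7.39 and 7.48 (0.16 ± 0.070, SE). Acvrl1, the receptor that binds BMP9 together with endoglin, was lower on every knockout array (-0.10 ± 0.065). Of 14 hypoxia genes, mostly genes that low oxygen is known to induce along with Vegfa, 7 were higher and 7 lower (median 0.0057). Bnip3 (0.17) and Pdk1 (0.20) were among the higher. The oxygen sensing factors Hif1a and Epas1, added after their values were seen, differed by 0.17 ± 0.18 and 0.067 ± 0.064 (SE).

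Vessel subtypes gave small numbers of separated genes. Of 12 arterial genes 6 were higher and 6 lower (median 0.019), and 2 were higher with no overlap. These were Sema3g, a semaphorin of arterial endothelium, at 6.86, 6.98 and 6.94 in wild type and 7.04, 7.23 and 7.22 in knockout, and Gja4, the arterial connexin 37, at 7.41, 7.39 and 7.40 against 7.44, 7.66 and 7.66. Their differences were 0.24 ± 0.079 and 0.19 ± 0.081 (SE, adjusted p = 1.00 for both in limma's test), and 4.57% of all genes were higher without overlap. Of 5 venous genes, Nr2f2, the factor that sets venous identity, was lower by 0.18 on average (7.06, 6.85 and 6.92 against 6.84, 6.83 and 6.62). Its groups were barely apart, with the lowest wild-type array at 6.848 and the highest knockout array at 6.845, where 4.28% of all genes were lower without overlap; without knockout replicate 3 the difference was -0.11. Ephb4 differed by 0.16. Of 5 endocardial genes 3 were higher, with Hapln1 at 0.18 near the bottom of the scale and Nfatc1 at -0.14.

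Mural cells wrap the vessels and are the main source of contractile actin there. Of 10 mural genes 7 were higher and 3 lower in knockout (median 0.066). The groups did not overlap for 1 higher gene (4.57% of all genes) and 1 lower gene (4.28%). Acta2, smooth muscle actin, was at 12.89, 12.76 and 12.63 in wild type and 13.19, 13.23 and 13.12 in knockout, 0.42 ± 0.084 higher (SE), with no overlap; its adjusted p was 0.721 in limma's test and 0.161 with the block. Cnn1 was 0.32 ± 0.16 higher. The part of mural cells in the Acta2 and Cnn1 values was not tested.

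The remaining cell types were measured as a check on the makeup of the samples. Of 8 fibroblast genes 2 were higher (median -0.026), with Dcn at -0.044 and Dpt at -0.11. Of 8 heart muscle genes 6 were higher (median 0.021), with Ryr2 at 0.10 and Actc1 at -0.057. Of 9 epicardial and mesothelial genes 4 were higher (median -0.0038), with Aldh1a2 at 0.17 and Wt1 at -0.10. Of 6 fat genes 3 were higher (median 0.069), with Ucp1 at 0.73 ± 1.4 and Cidea at 0.34 ± 0.24 (SE).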

How the data were processed

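Hearts were taken at postnatal day 10 from 3 mice of each genotype and measured on 1 array each. The deposited values are log2 RMA levels per probe set, made by the authors with GCOS 1.4 and RMA, per the submitters' processing notes; the array medians were 6.03 to 6.11. Of 45101 probe sets, 64 controls were left out. Of the 45037 tested, 34945 name 1 gene, 932 several and 9160 none, and genes were named from the platform annotation. The members and lists were chosen with earlier results of these data known. Each of 18193 genes was fitted with limma 3.58.1 in R 4.3.3 (lmFit, eBayes, Benjamini-Hochberg adjustment over all genes, threshold 0.05), after a test on simulated data. P-values measure the spread between these mice. All 35 members were named, with the 2 genes of lowest unadjusted p in each of 15 further lists and Xist, Eif2s3y, Ucp1 and Mib1; Spred1, Pik3r2, Cd163, Mmrn1, Reln, Slc4a1, Epas1 and Hif1a were added after their values were seen. Replicate numbers come from the titles. After each group's mean was removed, arrays sharing a number correlated at 0.54, 0.18 and 0.13 (minimum set at 0.1), so the numbers were treated as pairs, although differently numbered arrays 2 and 3 correlated at 0.35 and 0.30. Alternatives were the replicate block, each array left out, replicates 2 and 3 only, the mean of probe sets, no _x_at or _s_at probe sets, a further quantile normalization, a mean of at least 5, a trended and robust fit, and the Xist level as a covariate.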

Additional observations from a re-analysis of the deposited data

How the results depend on the processing

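No vessel gene passed under any of the 14 alternatives (lowest adjusted p in limma's test 0.200, for Lyve1 without knockout replicate 1), and 15 of the 35 genes kept the sign of their difference in all of them, Lyve1, Aqp1 and Angpt1 included. The count over all genes, 0, was 13 with the replicate block, 1 with replicates 2 and 3 only, 3 with the mean of a gene's probe sets, and 0 to 4 when 1 array was left out. The count over all probe sets, 3, was 20 with the replicate block, 0 without probe sets whose identifiers end in _x_at or _s_at, 0 with a mean of 5 or more, 6 with a trended and robust fit, 0 after adding Xist as a covariate, and 1 to 15 when 1 array was left out. Knockout replicates 1 and 2 gave 4 and 2 genes, and 6 and 15 probe sets, when left out; without knockout replicate 2 every knockout array had low and every wild-type array high Xist. The cause of these changes was not tested. The block changed no call of a vessel gene. The signs below turned, and none of these values passed. With the Xist covariate they were Cldn5 -0.010, Ptprb -0.047, Tek 0.12, Fli1 0.17, Ets1 0.031, Prox1 0.080, Pdpn 0.013, Vegfa 0.093, Angpt2 0.044, Dcn 0.00092, Dpt 0.081, Mmrn1 -0.068, Nfatc1 0.0051, Ucp1 -0.12 and Wt1 0.17. With the mean of probe sets they were Cdh5 -0.078, Ptprb -0.028, Flt1 -0.019, Flt4 -0.060 and Acvrl1 0.012. Without _x_at and _s_at probe sets they were Egfl7 -0.0023 and Meox2 0.12. After a further quantile normalization they were Cldn5 -0.0063, Icam2 -0.021, Emcn -0.032, Ptprb -0.013, Sox18 -0.019, Erg -0.0046 and Reln 0.010. With replicates 2 and 3 only they were Cldn5 -0.011, Tek 0.068, Sox18 -0.018, Fli1 0.10, Flt4 -0.077, Vegfa 0.073, Angpt2 0.045 and Reln 0.10. Leaving out 1 array gave Pecam1 -0.019 to 0.16, Cdh5 -0.018 to 0.25, Cldn5 -0.035 to 0.14, Icam2 -0.087 to 0.13, Emcn -0.064 to 0.064, Egfl7 -0.0047 to 0.16, Ptprb -0.0074 to 0.060, Plvap -0.037 to 0.24, Vwf -0.037 to 0.19, Flt1 -0.035 to 0.088, Tek -0.14 to 0.086, Sox18 -0.072 to 0.088, Erg -0.037 to 0.11, Fli1 -0.29 to 0.19, Ets1 -0.15 to 0.051, Prox1 -0.12 to 0.046, Flt4 -0.097 to 0.069, Pdpn -0.14 to 0.069, Vegfa -0.11 to 0.16, Angpt2 -0.078 to 0.0062, Dcn -0.088 to 0.026, Mmrn1 -0.065 to 0.086, Reln -0.089 to 0.059, Ucp1 -0.74 to 2.09 and Wt1 -0.24 to 0.033. RMA values carry no read depth, and 3 arrays per genotype limit the precision: the standard errors of the 35 genes ran from 0.067 to 0.24.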
